A study of Canis lupus familiaris with 29 samples.

Results

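The 150 genes described here were higher on average in T-cell than in B-cell lymphomas of golden retrievers, and varied widely from one B-cell tumour to the next. They were chosen by the measured values themselves. Values are in FPKM, by its usual definition fragments scaled by transcript length and by the library's mapped fragments. Of 16382 rows of the expression table, 11552 reached 1 FPKM in at least 5 of 29 libraries. Of these, 840 had a mean log2(FPKM + 1) at least 1 higher over the 9 T-cell libraries than over the 20 B-cell libraries. In 84 of the 840 every T-cell library lay above every B-cell library, and those were set aside. The 150 members are the rows with the largest standard deviation (SD) of log2(FPKM + 1) over the 20 B-cell libraries among the remaining 756. Neither the higher mean in T-cell tumours, the overlap, nor the large spread among B-cell tumours is therefore a finding. The choice depends on the pseudocount: with 0.1 in place of 1 added to the FPKM, 62 of the 150 would be chosen.

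Each library is bulk RNA sequencing of 1 tumour, labelled by phenotype, sex, neuter status and age at diagnosis, with no treatment named. Among B-cell tumours 9 were from females and 11 from males, 3 from intact and 17 from neutered dogs, aged 2.0 to 14.0 years. Among T-cell tumours 6 were from females and 3 from males, 3 from intact and 6 from neutered dogs, aged 4.5 to 11.9 years. The sources used here do not give how the phenotype was determined, the organ sampled or the share of tumour cells. Nothing in the labels says that the libraries come from 29 different dogs, so p-values measure the spread between libraries. Libraries carry a number within their phenotype that only names them.

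Lymphoma is a tumour of lymphocytes that is common in golden retrievers, and it is divided by lineage into B-cell and T-cell disease. A piece of tumour also holds non-malignant cells: T cells, macrophages, vessels and supporting tissue. Pathologists stain for T-cell proteins to recognise T-cell disease, and the same proteins mark the non-malignant T cells that lie among the cells of a B-cell tumour. In bulk samples, fewer cells of a type and less RNA per cell cannot be told apart. Genes are identified by Ensembl ID alone, which could not be paired with symbols here, so what the members encode is not stated. For the same reason the markers of B cells, T cells and other cell types were not read, and the labelled phenotypes were not checked against them. Apart from 2 IDs, members are called by their rank in SD over the B-cell libraries, from rank 1, the most variable, to rank 150.

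Members were expressed at modest levels in B-cell tumours. The median over members of the median FPKM was 4.85 in B-cell and 24.7 in T-cell libraries, against 12.5 and 13.5 over all rows tested. The difference of means ranged from 1.003 to 4.47 on the log2 scale, with a median of 1.45. With limma and Benjamini-Hochberg adjustment, 125 of the 150 were called higher in T-cell tumours. The call rate in that direction over all rows was 23.6%, and nothing is read from the members' count, because the choice used this contrast. Within B-cell tumours the highest library exceeded the lowest by a median of 4.15 log2 units per member, with a range of 2.38 to 10.89. Of the 150, 74 were under 1 FPKM in at least 1 B-cell library, and 63 of these reached 10 FPKM or more in another. Zeros were listed for 16 members in at least 1 B-cell library and for 11 in at least 1 T-cell library.

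The limit of the choice fell in a dense stretch. The last member, rank 150, had an SD of 0.883 over B-cell libraries, a T-minus-B difference of 2.20 and B-cell values from 0 to 10.6 FPKM with a median of 2.98. The first row outside had an SD of 0.882, a difference of 1.66 and a B-cell median of 6.46 FPKM. Members ranked from 5 to 742 in SD over B-cell libraries among all 11552 rows, so many rows outside the 150 varied as much. For 57 members the SD fell under the limit once the B-cell library with their highest value was left out. For 13 members that library stood at least 2 log2 units above the next one.

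The overlap of the phenotypes took several forms. In 38 members the highest B-cell library lay above every T-cell library. A median of 12.5 of the 20 B-cell libraries reached the lowest T-cell value, and for 24 members all 20 did. Against the T-cell median the overlap was smaller. No B-cell library reached it for 35 members, 1 or 2 did for 65, 3 to 6 for 48, and 9 or more for the remaining 2. For most members, few B-cell tumours or none reached the T-cell median, while more reached the lowest T-cell value. The choice asked for a higher T-cell mean and for overlap, so these counts are a description. They were not made for the rows not chosen.

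A few B-cell libraries held the highest value of most members. Of the 150 members, 103 were highest in 1 of 4 libraries: 35 in B-cell library 8, 24 in library 4, 22 in library 13 and 22 in library 3. The choice used the spread over these same libraries, and this count was not made for other rows. Means of the 606 rows that passed the same limits and were not chosen were also highest in libraries 13, 4, 3 and 8. They were 2.87, 2.69, 2.68 and 2.64 there. The lowest value fell in library 19 for 46 members, in library 11 for 32 and in library 5 for 19. Averaged over the members, log2(FPKM + 1) was 3.01 ± 0.633 (SD, n = 20) in B-cell libraries, from 1.80 in library 19 through a median of 2.93 to 4.10 in library 13. The next highest were library 3 at 4.004, library 4 at 3.92 and library 8 at 3.76. In T-cell libraries the same mean was 4.76 ± 0.505 (SD, n = 9), from 3.63 in T-cell library 6 to 5.36 in library 2. These 4 B-cell libraries lay above T-cell library 6 and below the other 8 T-cell libraries, whose lowest mean was 4.56.

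**Figure D1:**
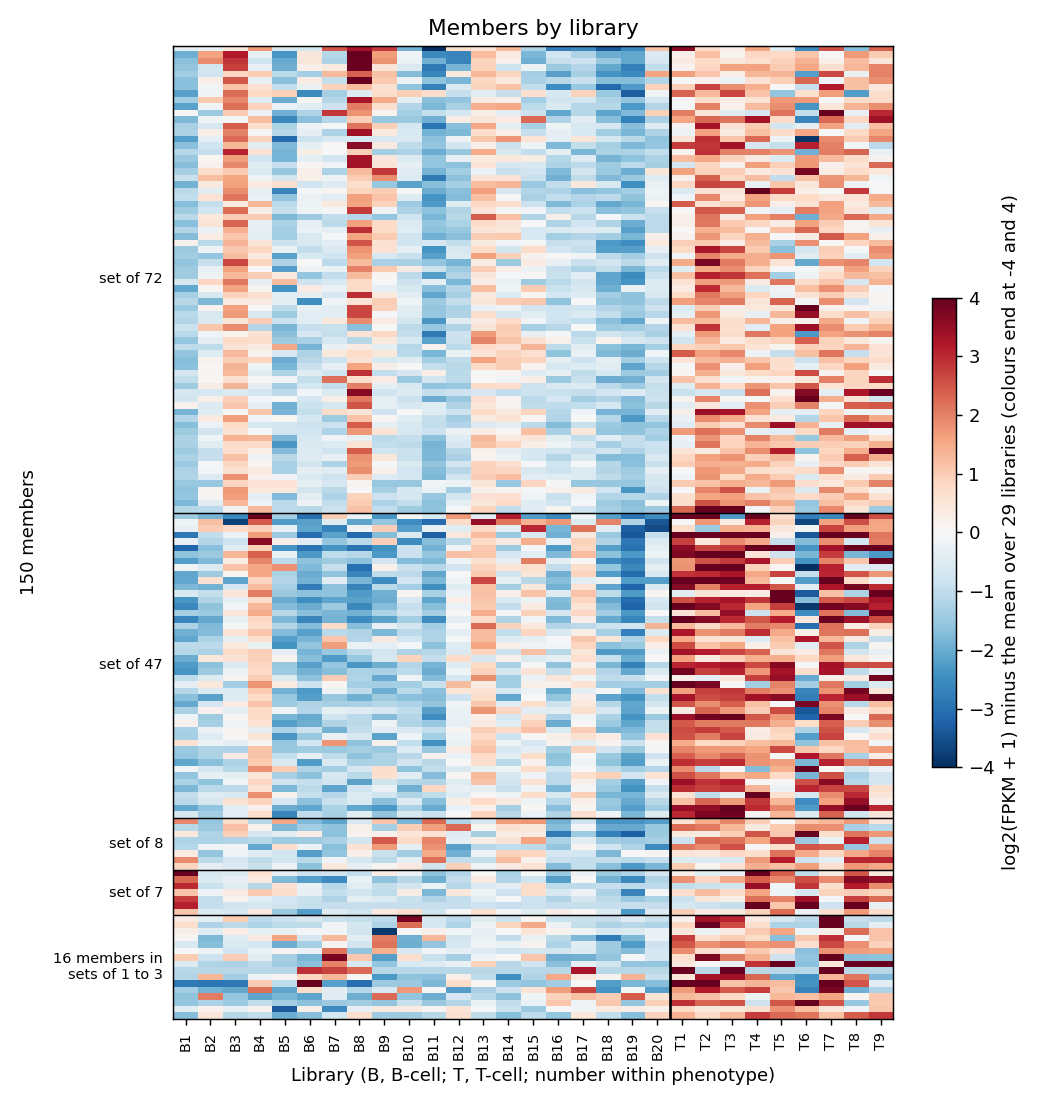
Level of each of the 150 members (rows, grouped by set) in each of the 29 libraries (columns), coloured by log2(FPKM + 1) relative to the member's own mean. B-cell libraries 3, 4, 8 and 13 have the highest member means among B-cell tumours, at 3.76 to 4.10. The highest B-cell values lie in library 8 mainly for the set of 72, and in library 4 mainly for the set of 47.

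As a share of all FPKM the members took 0.766% ± 0.571 (SD, n = 20) in B-cell and 2.60% ± 0.570 (SD, n = 9) in T-cell libraries. The lowest share was 0.194% in B-cell library 19 and the highest B-cell share was 2.52% in library 8. Library 8, and library 3 at 1.77%, were within the T-cell range of 1.63% to 3.68% by this measure. The share gives most weight to abundant members, such as ranks 5 and 6, at 1304 and 1700 FPKM in library 8. It does not show that the members as a whole reached T-cell levels. The number of members at or above their T-cell median was 55 in B-cell library 3, 51 in library 8 and 39 in library 13. Library 4, with 24, was close to libraries 9 and 15, with 22 each. The lowest numbers were 2 in libraries 6 and 18 and 3 in library 19. Members under 1 FPKM numbered 57 in library 19 and 6 in library 13.

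Depth and the level of other rows differed between these libraries too. Depth relative to the median library, read from the smallest FPKM steps, ranged from 0.646 to 1.54 in B-cell and from 0.363 to 1.198 in T-cell libraries. Library 8 was the deepest at 1.54, library 13 stood at 1.07, libraries 3 and 4 at 0.774 and 0.778, and library 19 at 1.18. Library 11, low in the members, was nearly as deep as library 8, at 1.502. The mean log2(FPKM + 1) of rows higher in B-cell tumours ran from 4.80 in library 8 to 5.29 in library 20, and was 4.90 in library 13, 4.99 in library 3, 5.04 in library 4 and 5.13 in library 19. Rows listed at 0 ranged from 2659 in library 8 to 3652 in library 5. The 606 rows of the 756 that were not chosen followed a like order, with means from 1.76 in library 19 to 2.87 in library 13. The part of depth or of B-cell content in the members' spread was not tested.

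The members tended to rise and fall together across B-cell tumours. Over the 20 B-cell libraries, the 11175 pairs of members had a median Pearson correlation of 0.286. It exceeded 0.5 in 29.2% of pairs and 0.8 in 6.70%, and was below 0 in 17.97%. These values describe the same 20 libraries, so anything that scales a library moves every pair. The 606 rows not chosen had a higher median, 0.347, but fewer pairs over 0.8, at 2.9998%. The 84 rows without overlap had a median of 0.336, with 2.58% of pairs over 0.8. Pairs over 0.5 made up 29.6% in the 606 rows and 27.8% in the 84. Rising and falling together was thus not particular to the members. Pairs among all rows tested had a median of 0.009, with 0.539% over 0.8. For the same 150 members the median was 0.199 after quantile normalization and 0.255 after median-of-ratios scaling. When the members were chosen anew after quantile normalization, it was 0.159. Over the 9 T-cell libraries the median correlation of member pairs was lower, at 0.119. There it was 0.019 for the 606 rows not chosen, 0.117 for the 84 rows without overlap and 0.005 for all rows tested. For the same members it was 0.059 without T-cell library 6.

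The members did not form a single block. Average linkage on these correlations, divided into 4 groups, put 119 members in 1 group, with a median correlation of 0.456. A finer division into 12, chosen after these values were seen, separated that group into a set of 72 and a set of 47 members. Within the set of 72 the median correlation over B-cell libraries was 0.649, and within the set of 47 it was 0.621. Between them it was 0.256, and 0 pairs exceeded 0.8. Over the 9 T-cell libraries, which the division did not use, the median between them was 0.102, and 120 pairs, or 3.55%, exceeded 0.8. Within the set of 72 the T-cell median was 0.123, and within the set of 47 it was 0.410. A set of 8, a set of 7 and 8 smaller sets holding 16 members made up the rest. Because the sets were made from the B-cell values, their separation there is a description and has no test.

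The set of 72 was highest in B-cell libraries 8 and 3. There 35 of its members had their highest value in library 8, 21 in library 3 and 6 in library 13. Its mean log2(FPKM + 1) was 5.48 in library 8, 5.21 in library 3 and 4.56 in library 13. Library 11 was at 2.23 and library 19 at 2.14. In T-cell tumours the mean of the set lay between 4.36 in library 6 and 5.59 in library 2. B-cell libraries 8, 3 and 13 were therefore inside the T-cell range, and the other 17 were below it, the nearest at 4.08 in library 14. The set's median T-minus-B difference was 1.31.

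The set of 47 was highest in B-cell libraries 4 and 13. Library 4 held the highest value for 22 of its members, library 13 for 16 and library 15 for 5. Its mean was 4.68 in library 4, 4.44 in library 13, 3.91 in library 17 and 3.78 in library 15. Library 6 was at 1.75 and library 19 at 1.35. T-cell library 6 had a mean of 2.57, and the other 8 T-cell libraries had means of 4.61 to 6.001. Only B-cell library 4 fell inside the range of those 8. The median T-minus-B difference of the set was 2.20.

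Library 8 set the sets apart most visibly. It was the highest B-cell library for the set of 72, at 5.48, and among the lowest for the set of 47, at 2.01. Library 3 stood at 5.21 and 3.20, library 4 at 4.03 and 4.68, and library 13 at 4.56 and 4.44. Library 13 was thus high in both sets, and library 19 was the lowest in both.

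**Figure D2:**
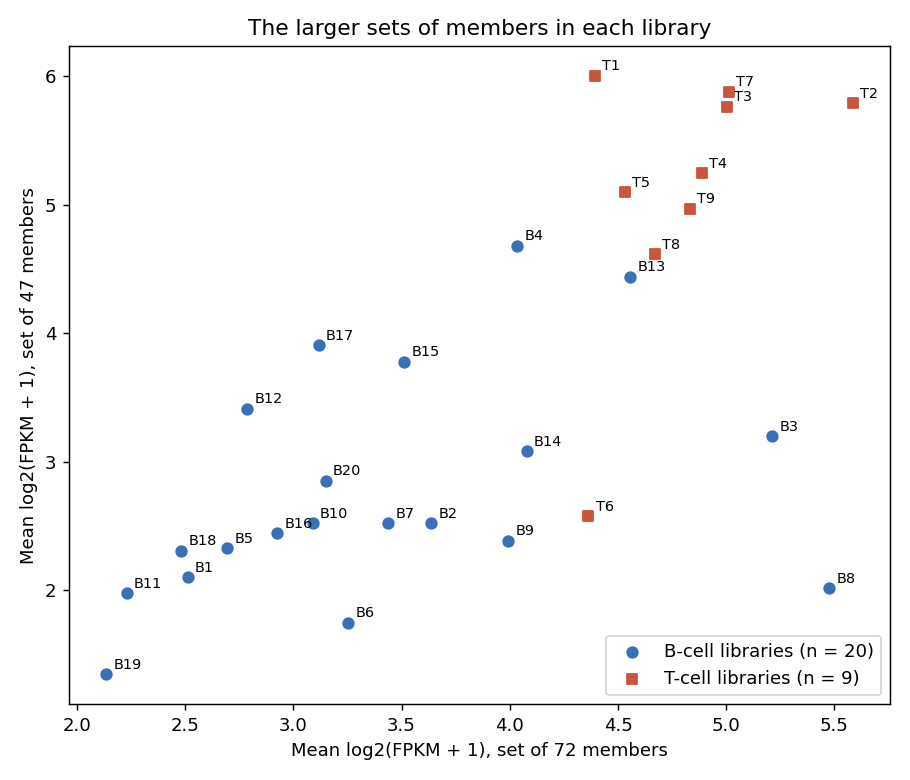
Mean log2(FPKM + 1) of the set of 72 members (horizontal axis) against that of the set of 47 (vertical axis), 1 point per library, with B-cell and T-cell libraries in different colours. B-cell library 8 lies far to the right at 5.48 but low at 2.01, B-cell library 4 is the highest B-cell point at 4.68, and T-cell library 6 lies at 4.36 and 2.57, below the other T-cell libraries.

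The set of 7 was tied to 1 tumour. All 7 had their highest B-cell value in library 1, where their mean was 4.94. The next B-cell library was library 4, at 2.46. In T-cell tumours the same 7 were at 5.34 in library 8, 5.26 in library 4, 4.27 in library 6 and 2.54 in library 2, so they varied there as well. The set of 8 was looser, with a median correlation of 0.446 in B-cell and of -0.20 in T-cell tumours. B-cell library 11, low for the set of 72, was the highest B-cell library for 4 of these 8.

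Single members show these patterns in FPKM. The most variable, ENSCAFG00000013622, had B-cell values from 0.139 FPKM in library 8 through a median of 2.21 to 2164 in library 6. The next B-cell library was library 4, at 18.1 FPKM. Its T-cell values ran from 0.791 in library 6 through 23.2 to 866 in library 7. A single B-cell tumour thus exceeded every T-cell tumour, and the other 19 were at 18.1 or less. It belonged to neither large set.

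The member whose correlation with the other 149 was highest on average, at 0.487, was ENSCAFG00000006491, of rank 124 and in the set of 72. Its B-cell values were 5.85 FPKM in library 19, 13.1 at the median, 39.6 in library 13 and 71.4 in library 8. Its T-cell values were 16.6 in library 6, 42.5 at the median and 60.7 in library 4. Library 8 was the only B-cell tumour above every T-cell tumour for it.

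The members of ranks 5 and 6, both in the set of 72, followed each other most closely of all pairs, with a correlation of 0.989 in B-cell and of 0.804 in T-cell tumours. Rank 6 ran in B-cell tumours from 16.8 FPKM in library 12 through a median of 62.5 to 818 in library 3 and 1700 in library 8. In T-cell tumours it stayed between 127 and 294 FPKM, with a median of 173. Rank 5 reached 719 FPKM in library 3 and 1304 in library 8, against a T-cell range of 79.8 to 258. B-cell libraries 3 and 8 thus exceeded every T-cell tumour for both members. For rank 6, library 2 at 415 FPKM and library 9 at 383 did so too. Whether such near-identical pairs share reads through similar sequences was not tested.

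Members of the set of 47 had another form. Rank 47 ran in B-cell tumours from 1.30 FPKM in library 19 through a median of 6.40 to 43.2 in library 13 and 50.8 in library 4. In T-cell tumours it was 0.453 in library 6 and at least 62.2 in the other 8, with a median of 182 and a highest value of 356 in library 1. Apart from T-cell library 6, which was below every B-cell library, the phenotypes did not overlap. Rank 86 followed it with a correlation of 0.988 in B-cell and of 0.919 in T-cell tumours. Its B-cell values ended at 19.3 in library 13 and 19.7 in library 4, and its T-cell values began at 10.1 in library 6 and had a median of 94.2. Rank 2, also in this set, was at 364 FPKM in B-cell library 4 and at 0.0492 in B-cell library 6, with a B-cell median of 2.20. Its T-cell values ranged from 0.291 in library 6 to 406 in library 8.

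The member of rank 10 was on or off in both phenotypes, and other members of this form were not counted. It was listed at 0 in 16 of 20 B-cell libraries and in 6 of 9 T-cell libraries. Where it was detected it reached 9.31 to 20.1 FPKM in B-cell libraries 6, 7, 8 and 17, and 36.6 to 64.5 in T-cell libraries 1, 3 and 7. A listed 0 in a table of FPKM can also be a failed estimate.

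**Figure D3:**
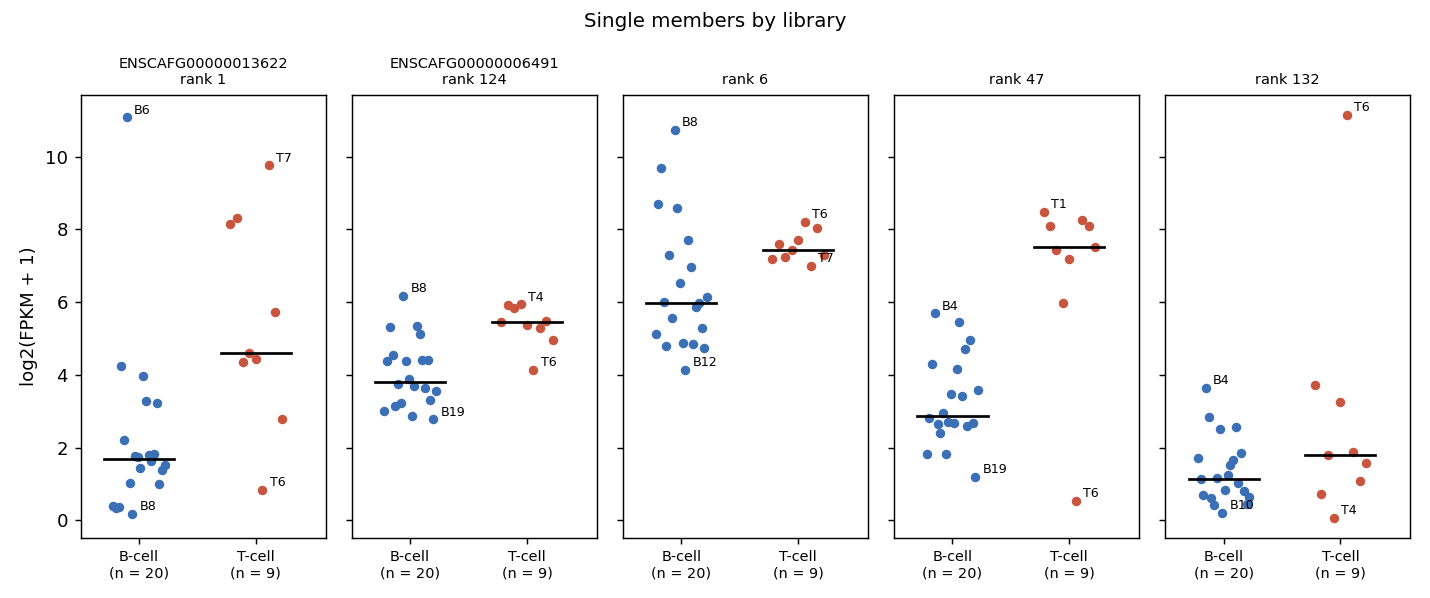
Level of 5 members in each library on the log2(FPKM + 1) scale (vertical axis, log2), with B-cell and T-cell libraries side by side and 1 point per library. ENSCAFG00000013622 has 1 B-cell library at 2164 FPKM, rank 6 has 4 B-cell libraries above all T-cell libraries, rank 47 has 1 T-cell library, at 0.453 FPKM, below all B-cell libraries, and rank 132 has 1 T-cell library at 2270 FPKM.

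The choice did not rank members by their spread in T-cell tumours, but it did require the lowest T-cell value to reach down to the highest B-cell value, which bears on that spread. The median SD of log2(FPKM + 1) over T-cell libraries was 1.31 for the members, against 1.08 over B-cell libraries. The SD was larger over T-cell libraries for 90 of the 150 members, or 60%, and for 70.0% of all rows tested. Over all rows the median SD was 0.495 in T-cell and 0.391 in B-cell libraries. The 606 rows not chosen had 0.931 and 0.553, and the 84 rows without overlap had 0.446 and 0.461. These values are a description, since the overlap that the choice asked for can itself raise the SD over T-cell libraries.

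The sets differed in their T-cell spread. The set of 47 had a median SD of 1.73 over T-cell libraries and a median pairwise correlation there of 0.410. The set of 72 had 1.11 and 0.123. Without T-cell library 6, in which the set of 47 was far below its other T-cell values, the set of 47 had 1.21 and 0.135 and the set of 72 had 0.855 and 0.207. Over B-cell libraries their median SDs were close, at 1.03 and 1.12.

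**Figure D4:**
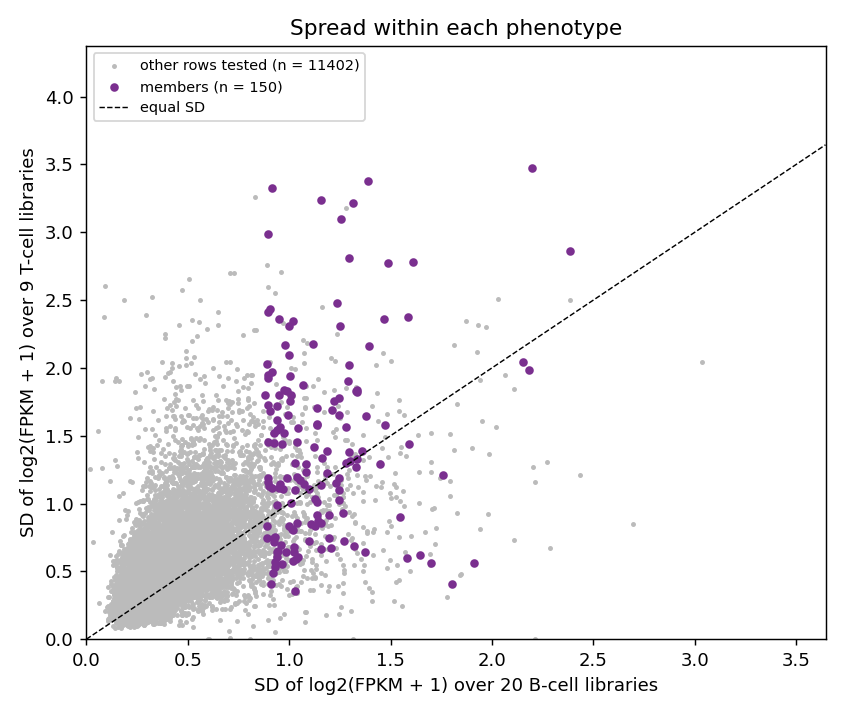
SD of log2(FPKM + 1) over the 20 B-cell libraries (horizontal axis) and over the 9 T-cell libraries (vertical axis) for the 150 members and the other rows tested, 1 point per row, with the line of equal SD. Members begin at the chosen limit of 0.883 on the horizontal axis and spread widely on the vertical one, and 90 of the 150 lie above the line.

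T-cell library 6 stood apart in the members. It was the lowest T-cell library for 66 of them, or 44%, and the highest for 22. It was the lowest for 35.6% of the 606 rows that passed the same limits on mean and overlap and were not chosen, for 25% of the 84 rows without overlap, and for 28.6% of all rows. The limit on overlap uses the lowest T-cell value, so these shares are a description. It had 34 members under 1 FPKM, where the other T-cell libraries had 4 to 8. The set of 47 was lowest in it for 31 members and the set of 72 for 23. Its relative depth was 1.13, and its mean over the 606 rows not chosen, 3.55, was within the T-cell range of 3.50 to 3.95. For the same 150 members the median SD over T-cell libraries was 0.991 without this library. Also without it, 11 members would miss the difference of 1, and 10 would no longer overlap. Choosing anew without it kept 107 of the 150. With each member's own highest T-cell library left out instead, 36 members would miss the difference of 1.

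The B-cell tumours were compared by sex, neuter status and age, labels that the choice of members did not use. The choice did use the spread over the same 20 libraries, with a median SD of 1.08 for members and 0.391 for all rows. Any split of these libraries can therefore give larger fitted changes for members than for all rows. B-cell libraries 4, 8 and 13, high in the members, are from females, and library 3 is from a male. The libraries of males and females are different tumours, and the members share libraries, so counts of members are not independent evidence. For sex, limma with neuter status in the model called 0 members and 0 of the 11552 rows at an adjusted p of 0.05, a call rate of 0%. At an unadjusted p under 0.05 there were 29 members and 1202 rows, or 10.4% of all rows. Of the 29 members 27 were lower in males and 2 higher, where 5.86% of all rows passed as lower in males. The lowest adjusted p of a member was 0.387 with limma.

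The fitted change was in 1 direction for most members. It was lower in males for 133 of 150, or 88.7%, against 56.4% of all rows. The median change, male minus female, was -0.60 log2 units over the members and -0.03 over all rows. The 95% interval of a single member extended by a median of 0.93 log2 units to each side. Of the set of 72, 67 were lower in males, with a median of -0.56 and 16 at an unadjusted p under 0.05. Of the set of 47, all 47 were, with a median of -0.82 and 10 at that p. The set of 7 had a median of 0.08. None of these passed the adjusted threshold, so no member is reported as changed with sex. The fitted change was not summarised for the 606 rows not chosen, whose means followed a like order across B-cell libraries. The shift is therefore not shown to be particular to the members.

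The mean over members was 3.32 ± 0.557 (SD, n = 9) in females, from 2.46 to 4.10, and 2.76 ± 0.598 (SD, n = 11) in males, from 1.80 to 4.004, and the ranges overlapped. Females had a mean relative depth of 1.01 ± 0.251 (SD, n = 9) and males of 1.01 ± 0.264 (SD, n = 11). Rows listed at 0 averaged 3103 in females and 3292 in males. The member with the lowest p for sex was rank 128, in the set of 47. Its values were 4.62 to 26.6 FPKM with a median of 10.01 in the 9 females, and 1.83 to 10.9 with a median of 3.54 in the 11 males. Its change was -1.19 ± 0.30 log2 units (SE), with a 95% interval of -1.81 to -0.57 and an adjusted p of 0.387 by limma. The count of 27 lower members ran from 19 to 53 when 1 library was left out. It was 19 without B-cell library 13, 53 without library 3, 44 without library 5, 41 without library 8 and 47 without library 17. With array weights, which give noisier libraries less weight, it was 46, and with all 29 libraries and phenotype in the model it was 17. The share of all rows at that p was not counted under these settings. Whether the members alone moved therefore cannot be told.

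**Figure D5:**
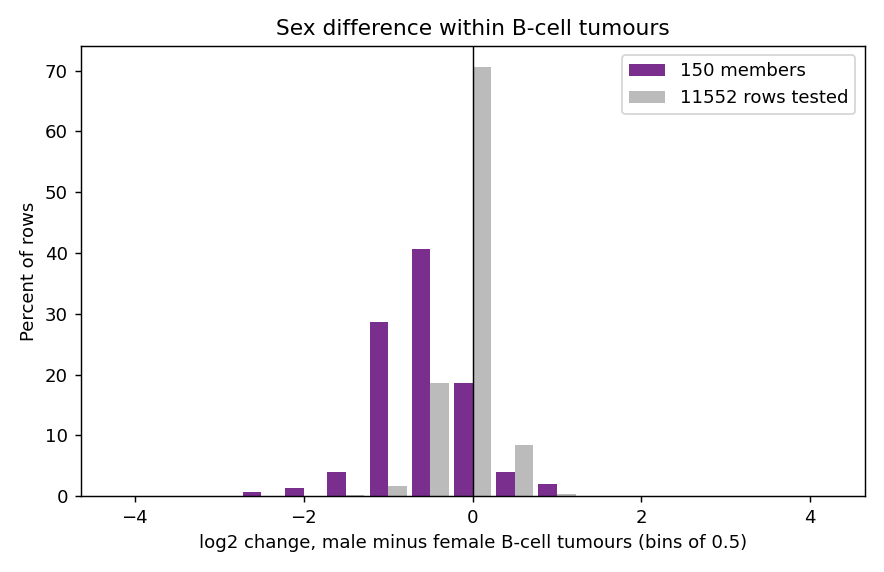
Distribution of the fitted change between male and female B-cell tumours (horizontal axis, log2 units, bins of 0.5) as a percent of the 150 members and of all 11552 rows tested (vertical axis). The members are shifted below 0, with a median of -0.60, while all rows centre near 0, and 0 rows pass the adjusted threshold. The 606 rows that passed the same limits and were not chosen are not shown apart.

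For neuter status, with 3 intact and 17 neutered B-cell tumours and sex in the model, limma called 0 members, where 0.0346% of rows (4 rows) were called. Over all libraries left out in turn the number of rows called ran from 0 to 125. It was 125 without B-cell library 4, 22 without library 1 and 12 without library 15, and it was 0 with quantile or median-of-ratios scaling. At an unadjusted p under 0.05 there were 6 members, where 14.2% of all rows passed, 2 of the 6 higher and 4 lower in neutered dogs. The median change was -0.04 and the intervals extended by a median of 1.29 log2 units to each side. This median had no stable direction. It was -0.57 without B-cell library 5, 0.21 without library 4 and 0.25 without library 9, which are the 3 intact tumours. It was -0.49 with array weights and 0.15 with all 29 libraries. The lowest adjusted p, 0.0635 by limma, belonged to rank 132, with a change of -1.80 ± 0.36 (SE), neutered minus intact. Its 3 intact B-cell tumours were at 4.70, 6.25 and 11.6 FPKM, and the 17 neutered ones at 0.163 to 4.92 with a median of 1.03. It was called without B-cell library 1, with an adjusted p of 0.0455, and without library 15, with 0.0314, both by limma. The same member was at 2270 FPKM in T-cell library 6 and at 12.2 or less in the other T-cell libraries. Its T-minus-B difference was 1.43 with that library and 0.38 without it.

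For age, with sex and neuter status in the model, limma called 0 members and 0% of rows. At an unadjusted p under 0.05 there were 12 members and 4.18% of rows, and 11 of the 12 were lower with age, where 2.16% of all rows were. The median change was -0.02 log2 units per year and the lowest adjusted p of a member was 0.973 by limma. The count of 11 was 22 without B-cell library 1 and 3 without library 4, and the matching share of all rows was not counted.

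The labels give no sequencing batch, but the B-cell phenotype is spelled with a hyphen for 8 libraries and with a space for 12. Between the spellings limma called 0 members and 0% of rows. At an unadjusted p under 0.05 there were 3 members and 7.02% of rows, and the lowest adjusted p of a member was 0.685 by limma, for rank 34.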

How the data were processed

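RNA was measured in 29 lymphomas of golden retrievers. The deposited values are FPKM per Ensembl gene, made by the authors. A Qiagen RNeasy Mini column kit for RNA and Illumina TruSeq kits for libraries are named per the labels' protocols. FastQC 0.11.2, TopHat 1.4.1, Cuffdiff and the build CanFam3.1 are named per the submitters' processing notes. Those notes give no options, strand setting or scaling between libraries. By its usual definition FPKM divides by the library's total, so that a few abundant genes lower all others. Whether this holds here is unknown, because the scaling is not given.

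Of 78 value columns, 29 match sample titles and 49 were not used. The members, sets and tests were chosen with earlier results of these data known. Of 16382 IDs, 0 were matched to a symbol, so the 16 gene lists, the cell type markers and any sequence could not be used. Named IDs are the member with the largest SD over B-cell libraries and the one with the highest mean correlation with the others. Other members are given by rank. Those of ranks 2, 5, 6, 10, 34, 47, 86, 128 and 132 were picked after their values were seen.

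Values were used as log2(FPKM + 1), which understates changes of low genes. Absolute depth is unknown. Relative depth was taken from the most frequent ratio of FPKM under 0.2 between libraries. It fitted within 0.05 log2 units in 99.8% of 812 ordered pairs, and includes any scaling by the authors. All 11552 rows entered limma 3.58.1 (R 4.3.3; variance trend, robust, both directions), with Benjamini-Hochberg adjustment and a threshold of 0.05. Only the fit for sex was first tried on simulated data, in which rows were independent of each other. The phenotypes were compared with no covariate, and sex, neuter status, age and spelling within B-cell tumours alone. Other steps and plots used matplotlib 3.10.9, pandas 2.3.3, scipy 1.17.1, numpy 2.4.6 and Python 3.11.15. The alternatives were another pseudocount, a 5 FPKM filter, no filter, quantile and median-of-ratios scaling, limma's array weights, all 29 libraries with phenotype in the model, and leaving out each library. For values over the members, the rule was applied anew under each alternative. The same 150 members under other scalings, pseudocount 0.1 or without T-cell library 6 were added after seeing the data.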

Additional observations from a re-analysis of the deposited data

Results flagged for a closer look

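In groups of 4 to 10 libraries, 23 measures were examined for a library far from the others, and 6 stood out, all of T-cell library 6. Chance flags about 1 in 20 such groups, but that rate does not apply here. The members passed a limit on their lowest T-cell value, ranks 47, 128 and 132 were picked after their values were seen, and the 6 measures share 1 library. In T-cell library 6 the mean log2(FPKM + 1) over members was 3.63, where the next lowest T-cell library had 4.56. It had 34 members under 1 FPKM, where the next had 8. The mean of the set of 47 was 2.57, where the next lowest was 4.61. On the log2(FPKM + 1) scale, rank 47 was at 0.54 where the next lowest was at 5.98, and rank 128 was at 1.93 where the next lowest was at 5.42. Rank 132 was at 11.15 there, where the next highest was at 3.72.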

How the results depend on the processing

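Here the members were chosen anew under each alternative unless said otherwise, so values over members change with the genes as well as the setting. Of the 150 members, 62 were kept with a pseudocount of 0.1, where the number of rows to choose from grew from 756 to 1197. The scalings kept 130 (quantile) and 134 (median of ratios), the 5 FPKM filter 148, and leaving out 1 library 107 to 145. The median SD over T-cell libraries was 1.68 with a pseudocount of 0.1, and 1.08 to 1.36 when 1 library was left out. For the same 150 members it was 1.42 with that pseudocount. The median correlation over B-cell libraries was 0.159 after quantile normalization, and 0.226 to 0.336 when 1 library was left out. The cause was not tested. The largest group held 119 members in the division into 4 and 72 in the division into 12, which makes more groups by construction.

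For the tests the 150 members stayed as chosen. Members called for neuter status numbered 0 to 1 when 1 library was left out, and those for sex stayed at 0 in each alternative run. The median change with sex ran from -0.72 to -0.40 over the alternatives and from -0.71 to -0.49 when 1 library was left out. For age, the count of members lower at an unadjusted p under 0.05 differed by over 1.5 times, at 3 to 7, without B-cell library 4, 5, 7, 8, 11, 13, 14, 18 or 19, and at 22 without library 1. It was 6 with array weights, and 7 with no filter or with all 29 libraries. The share of all rows at that p was not counted under these settings. No paired analysis was possible because the labels give no replicate numbers shared between the groups. Without counts, the counting error of members near 0 FPKM is unknown, and 3 intact B-cell tumours limit the comparison by neuter status.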
